A study of Mus musculus with 16 samples.

Results

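The histone genes whose names begin with Hist1h, Hist2h, Hist3h or Hist4h were examined in the brains of Slc5a8-deficient and wild-type mice. They were chosen by gene name alone. Of 34821 gene names on the array, 49 met the rule, with 57 of the 55681 probes. Whole-brain RNA of male C57BL/6J mice was hybridised to Agilent whole-genome arrays in 1 colour. The 4 groups were wild type at 4 months, wild type at 18 months, deficient at 4 months and deficient at 18 months, with 4 arrays in each and 16 in all. The series describes the 4 arrays of a condition as biological replicates. Slc5a8 encodes a sodium-coupled transporter of short monocarboxylates. Which part of the gene was removed, and in which cells, is not given in the sources used here.

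Histones package DNA: H2A, H2B, H3 and H4 form the nucleosome core, and the linker histone H1 binds where DNA enters and leaves it. Most clustered histone genes are read during DNA replication. Their mRNAs end in a short stem-loop bound by the protein Slbp, in place of a poly(A) tail. Some of the same genes also make polyadenylated mRNAs in cells that no longer divide, as most brain cells do not.

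The Slc5a8 probe was well above background on 0 of 16 arrays, so it does not check the genotype labels. All 9 brain markers examined, among them the neuronal Snap25 and the myelin gene Mbp, were well above background on all 16 arrays. Between 58.4% and 66.1% of the spots on an array were well above background. All wild-type arrays lay on 1 slide and all deficient arrays on the other, so genotype and slide cannot be told apart in any value below. Within a genotype the 2 ages lay on different rows of the slide, so age and row cannot be told apart there either. The average of the 2 age differences is balanced over slide and row. In bulk RNA, fewer cells of a type and less RNA per cell cannot be told apart.

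Several probes carry the stem-loop itself. The 16-base histone stem-loop pattern, with its stem and loop bases fixed where the lines below are alike, was searched on the sense strand and found in 7 of the 55681 probes (0.0126%), and 6 of these belonged to Hist genes. The other was a probe for Snrpa. The stretches are shown with the matched pattern in capitals, because this end is what sets these mRNAs apart from most others.
Hist1h3a: ccaaaGGCTCTTTTCAGAGCCaca
Hist1h3g: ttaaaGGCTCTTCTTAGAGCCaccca
Hist1h3i: caaaaGGCTCTTTTCAGAGCCccctc
Hist1h4m: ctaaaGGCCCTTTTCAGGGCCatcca
Hist2h2aa2: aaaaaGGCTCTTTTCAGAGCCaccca
Hist2h2bb: caaaaGGCTCTTTTCAGAGCCacttt
The stem-loop probes of Hist1h4m, Hist2h2aa2 and Hist2h2bb were well above background on 16 of 16 arrays. For Hist1h3i this held on 15 arrays, for Hist1h3g on 7 and for Hist1h3a on 1.

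The 5 genes that changed in at least 1 comparison were measured at different places along their transcripts. Their probe sequences are shown to make that place visible: the last 30 bases of the probe for Hist1h1c, Hist2h2be and Hist2h3c2, all 60 bases for Hist1h1e, and 39 bases from the start codon for Hist1h3c. Capitals mark the start codon of Hist1h3c, the stop codon of Hist1h1e and the closing run of A in Hist2h3c2.
Hist1h1c: tagttgtagattaactttgttttgcctcag
Hist1h1e: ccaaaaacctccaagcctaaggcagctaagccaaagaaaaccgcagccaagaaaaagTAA
Hist2h2be: tacttacttgggattctgccatacactgaa
Hist1h3c: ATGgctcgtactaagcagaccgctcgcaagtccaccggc
Hist2h3c2: ataattacatcaccagacttctggAAAAAA
By the array design, the probe starts at base 1342 of the Hist1h1c transcript, base 1849 of Hist2h2be, base 957 of Hist2h3c2, base 661 of Hist1h1e and base 3 of Hist1h3c. In the NCBI37/mm9 coordinates of the scanner files they lie at chr13:23832018-23832077 on the plus strand (Hist1h1c), chr13:23713707-23713766 on the minus strand (Hist1h1e), chr13:23837328-23837387 on the minus strand (Hist1h3c) and chr3:96026893-96026952 on the plus strand (Hist2h2be). The files give no coordinates for the Hist2h3c2 probe. The current RefSeq symbols are H1f2, H1f4, H3c3, H2bc21 and H3c15 in the order Hist1h1c, Hist1h1e, Hist1h3c, Hist2h2be and Hist2h3c2.

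By position, the Hist1 genes lie on chromosome 13, where 36 genes with 39 probes span bases 21814057 to 24026527. Hist1h2al lies apart on the same chromosome, at bases 51299277 to 51299336. The Hist2 genes lie on chromosome 3 (7 genes with coordinates), the Hist3 genes on chromosome 11 (3 genes) and Hist4h4 on chromosome 6.

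Of the 57 probes, 44 were well above background on all 16 arrays, 10 on 1 to 15 arrays and 3 on none. A gene was tested if 1 of its probes passed that call on every array of 1 group or more, and 41 of the 49 genes were. The 38 genes measured on all 16 arrays were, among the H1 linker histones, Hist1h1a, Hist1h1b, Hist1h1c and Hist1h1e. Among the H2A genes they were Hist1h2aa, Hist1h2ab, Hist1h2ac, Hist1h2af, Hist1h2ag, Hist1h2ah, Hist1h2ak, Hist1h2an, Hist2h2aa2, Hist2h2ab, Hist2h2ac and Hist3h2a. Among the H2B genes they were Hist1h2ba, Hist1h2bc, Hist1h2be, Hist1h2bg, Hist1h2bm, Hist2h2bb, Hist2h2be and Hist3h2ba. The H3 genes were Hist1h3c, Hist1h3d, Hist1h3f, Hist2h3b and Hist2h3c2, and the H4 genes Hist1h4c, Hist1h4d, Hist1h4h, Hist1h4i, Hist1h4j, Hist1h4k, Hist1h4m, Hist2h4 and Hist4h4. Hist1h2bp, Hist1h2bq and Hist1h3i were tested but not above background on every array. The 8 genes with no probe kept were Hist1h1d, Hist1h1t, Hist1h2ae, Hist1h2al, Hist1h2bb, Hist1h3a, Hist1h3g and Hist3h2bb-ps. The Hist1h1t probe, for the testis-specific linker histone, was well above background on 11 arrays in all.

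At 18 months, 3 of the 41 Hist genes were higher in the deficient brains and none was lower: Hist1h1c, Hist1h1e and Hist2h2be. Over all 23030 genes tested, 0.912% were called higher, 0.556% lower and 1.47% in either direction. Hist1h1c and Hist1h1e encode linker histones and Hist2h2be a core H2B. Their levels were 2.415, 2.065 and 1.504 times those of the wild type. A call is a Benjamini-Hochberg adjusted p under 0.05 over all genes, from limma.

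Levels are log2 values relative to the 75th percentile of each array, so 0 is the level of that percentile. In the wild type at 18 months, Hist1h1c read 1.02, 0.97, 1.30 and 1.46 on arrays 1 to 4. In the deficient brains of the same age it read 2.44, 2.75, 2.02 and 2.62. The lowest deficient array was above the highest of the other 12 arrays, which was 1.85. The difference was 1.27 ± 0.175 (SE), with an adjusted p of 0.00132 by limma.

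Hist1h1e read 0.70, 0.32, 1.52 and 0.18 in the wild type at 18 months and 1.67, 1.74, 1.60 and 1.90 in the deficient brains. The groups did not overlap, though array 3 of the wild type came within 0.1 of the lowest deficient array. The difference was 1.05 ± 0.245, with an adjusted p of 0.0485 by limma. This call was lost in 13 of the 16 fits that each left out 1 array, with differences from 0.88 to 1.33 and adjusted p up to 0.152. Over all 25 alternatives run, these fits among them, it was lost in 18. With each probe tested on its own the adjusted p was 0.0509 by limma.

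Hist2h2be read -1.41, -1.13, -1.27 and -1.44 in the wild type at 18 months and -0.64, -0.47, -0.79 and -1.01 in the deficient brains. Every deficient array was above every wild-type array. The difference was 0.59 ± 0.115, with an adjusted p of 0.0165 by limma. It was lost without array 1 or 2 of the deficient brains or array 1 or 4 of the wild type, with an adjusted p of at most 0.0685. With only the 8 arrays of this age in the fit, 1 gene was called, Hist1h1c.

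**Figure D1:**
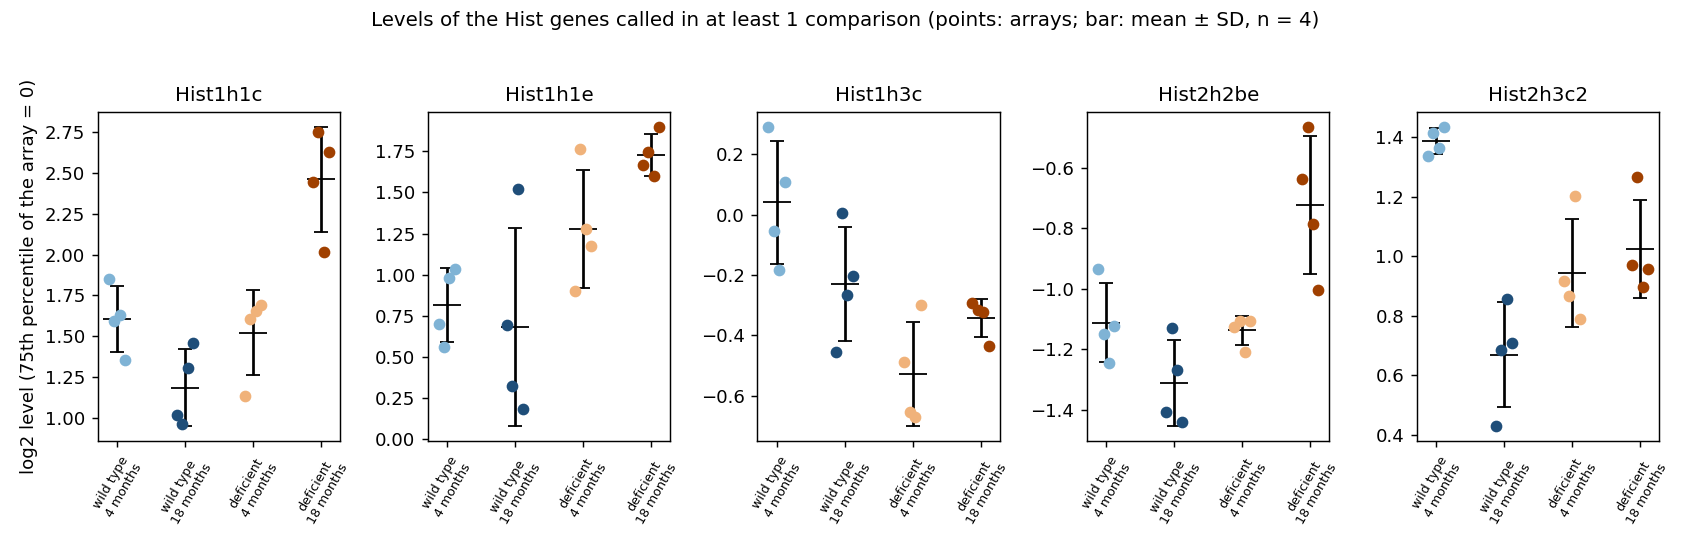
Levels of the 5 Hist genes called in at least 1 comparison, 1 panel each. Points are arrays, the horizontal bar is the mean and the vertical bar 1 SD (n = 4), and the y axis is the log2 level relative to the array's 75th percentile, with its own range in each panel. Hist1h1c in the deficient brains at 18 months lies between 2.02 and 2.75, above all other arrays.

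Of the other Hist genes, 31 of 41 in all had a fitted difference above 0 at 18 months. The median was 0.18, against 0.006 over all genes tested. It was 0.024 without array 4 of the wild type at 18 months, 0.322 without array 3 of that group, 0.111 with normexp correction and 0.117 with the deposited value table. At an unadjusted p under 0.05 there were 10 Hist genes, where 9.91% of all genes passed. By class, the fitted difference was above 0 for 4 of 4 H1 genes, 5 of 6 H3 genes, 8 of 9 H4 genes, 8 of 10 H2B genes (6 with normexp correction or the deposited value table) and 6 of 12 H2A genes (8 with normexp, 10 with the other scalings). The other linker histones, Hist1h1b and Hist1h1a, had differences of 0.65 (adjusted p = 0.211, limma) and 0.50 (adjusted p = 0.398, limma) and were not called. All 4 H1 genes stayed above 0 with each of the other 3 scalings tried.

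Hist1h4i, a core H4 gene, had a difference of 0.99 ± 0.25 and missed the threshold (adjusted p = 0.0713, limma). It read -0.20, 0.10, 0.56 and -0.06 in the wild type at 18 months and 1.21, 1.53, 1.23 and 0.37 in the deficient brains, so the groups overlapped on 1 array. Its other 2 probes gave smaller differences, of 0.44 and 0.10. One of the 2 holds a repeat-like run of bases and shares at least 20 bases with a probe for Galns.

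**Figure D2:**
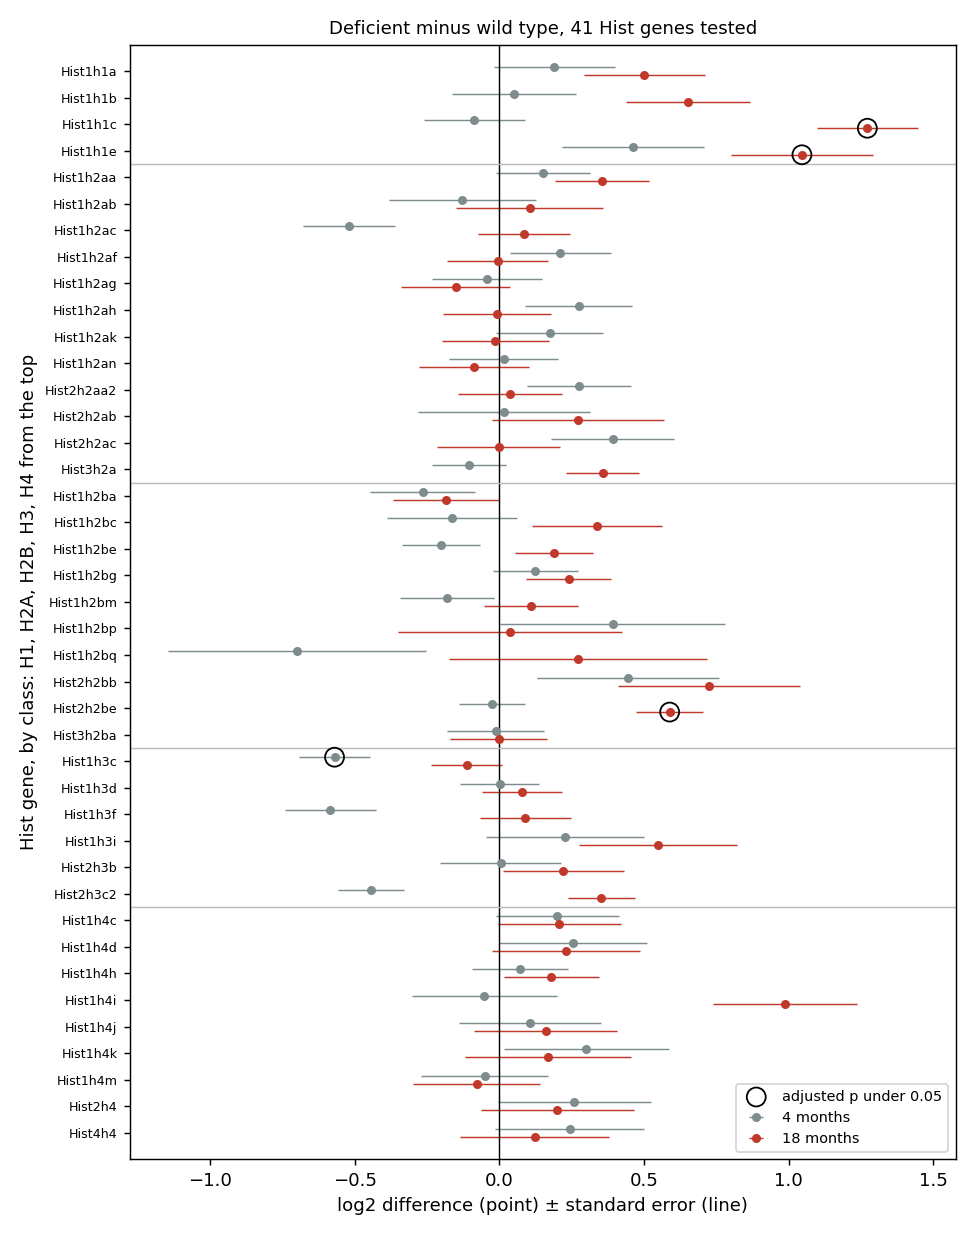
Fitted log2 differences, deficient minus wild type, of the 41 Hist genes tested, at 4 months (grey) and 18 months (red), with lines of 1 standard error. Genes are ordered by class from H1 at the top to H4, and circles mark an adjusted p under 0.05: Hist1h3c at 4 months, and Hist1h1c, Hist1h1e and Hist2h2be at 18 months.

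Markers of red blood cells moved with this comparison. Of 5 listed, 4 were tested, and Alas2 and Hbb-b2 were called lower in the deficient brains at 18 months, by 2.41 and 1.99. The summed log2 level of the 4 was between 3.83 and 6.02 in those brains and between 6.09 and 6.82 in the wild type of that age. Array 3 of the deficient brains had the smallest shortfall of the 4, with a median deviation of -0.16 from the markers' means, and there Hist1h1c read 2.02 and Hist1h1e 1.60. The part of blood in the Hist differences was not tested.

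At 4 months, 1 of the 41 Hist genes was called, Hist1h3c, a core H3 gene, which was lower in the deficient brains. Over all genes 1.53% were called, 0.86% lower and 0.673% higher. Hist1h3c read 0.29, -0.05, -0.18 and 0.11 in the wild type and -0.49, -0.65, -0.67 and -0.30 in the deficient brains, and the groups did not overlap. The difference was -0.57 ± 0.123, a level 0.674 times that of the wild type (adjusted p = 0.034, limma). The call was lost in 9 of the 16 fits that each left out 1 array, and with only the 8 arrays of this age in the fit (adjusted p = 0.192, limma).

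Hist1h3f, another H3 gene, had a difference of -0.58 ± 0.158 at 4 months (adjusted p = 0.0781, limma). Its probe shares a run of 36 bases with that of Hist1h3c, so the pair are not separate measurements. Hist2h3c2 and Hist1h2ac had differences of -0.44 (adjusted p = 0.0698, limma) and -0.52 (adjusted p = 0.115, limma). The Hist1h2ac probe starts at base 2426 of its transcript. Over the 41 genes the median difference was 0.017, against 0.022 over all genes tested, and 24 were above 0. Of the Hist genes, 4 had an unadjusted p under 0.05, where 17.4% of all genes did.

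Hist1h1c was the only Hist gene called in the test of whether the genotype difference differed between the ages. This test compares row 2 with row 1 on both slides, so it and the slide row cannot be told apart. Its difference was -0.09 at 4 months and 1.27 at 18 months, which gives 1.36 ± 0.248 (adjusted p = 0.0401, limma). Over all genes 0.187% were called in this test, 0.122% upwards and 0.0651% downwards. At an unadjusted p under 0.05 there were 8 Hist genes, where 10.6% of all genes passed. The call was lost in 13 of the 16 fits that each left out 1 array, with values from 1.23 to 1.51 and adjusted p up to 0.107. Hist2h3c2 and Hist2h2be had values of 0.80 (adjusted p = 0.0802, limma) and 0.61 (adjusted p = 0.199, limma). Over the 41 genes the median was 0.202, against -0.01 over all genes, and it was 0.039 with normexp background correction, 0.083 with the deposited value table and 0.055 without array 4 of the wild type at 18 months. It was 0.12 without array 1 of that group, 0.131 without array 2 of the deficient brains at 18 months and 0.132 without array 4 of the wild type at 4 months. Red-cell markers moved in this test too: all 4 tested were below 0, with a median of -1.868. None was called by limma, and 4 had an unadjusted p under 0.05. The 4 pituitary markers had a median of 3.479, with 0 called and 0 at an unadjusted p under 0.05. The part of these cells and tissues in the Hist values was not tested.

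With age in the wild type, 1 of the 41 Hist genes was called, Hist2h3c2, a core H3 gene of the Hist2 cluster, which was lower at 18 months. Over all genes 0.421% were called, 0.252% lower and 0.169% higher. It read 1.34, 1.41, 1.36 and 1.43 at 4 months and 0.43, 0.68, 0.86 and 0.71 at 18 months. The 4 young arrays lay within 0.1 of each other and above every other array of the study. The difference was -0.72 ± 0.115, a level 0.608 times that at 4 months (adjusted p = 0.0088, limma), and no array left out in turn removed the call. In the deficient brains Hist2h3c2 read 0.92, 0.87, 1.20 and 0.79 at 4 months and 0.97, 1.26, 0.90 and 0.96 at 18 months, and those groups overlapped.

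Of the 41 genes, 32 had a fitted difference below 0 with age in the wild type, with a median of -0.20 against 0.001 over all genes. The median was -0.088 without array 4 of the wild type at 18 months, -0.094 with normexp correction and -0.123 with the deposited value table. At an unadjusted p under 0.05 there were 8, where 6.35% of all genes passed. All 6 H3 genes and all 4 H1 genes were below 0, as were 9 of 10 H2B genes, 9 of 12 H2A genes and 4 of 9 H4 genes (3 with normexp correction). The H3 gene Hist1h3f had -0.64 (adjusted p = 0.129, limma), and the H2B gene Hist1h2bg -0.42 (adjusted p = 0.494, limma). With normexp correction these became smaller, down to -0.23 for Hist1h3f and -0.09 for Hist1h2bg. Pituitary markers moved with this comparison: the summed log2 level of Pomc, Prl, Gh and Cga was 1.0 to 8.15 at 4 months and 0.49 to 1.93 at 18 months. None of the 4 was called by limma, and 4 had an unadjusted p under 0.05. Choroid plexus markers also ranged up to 7.88 at 4 months and 6.90 at 18 months. The part of these tissues in the Hist differences was not tested.

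With age in the deficient brains, 1 of the 41 Hist genes was called, Hist1h1c, which was higher at 18 months. Over all genes 2.39% were called, 1.26% higher and 1.12% lower. At 4 months it read 1.14, 1.61, 1.65 and 1.69, below each of the 4 values at 18 months given above. The difference was 0.94 ± 0.175, a level 1.915 times that at 4 months (adjusted p = 0.0138, limma). Without array 2 of the deficient brains at 18 months the adjusted p of limma was 0.0553, and with only the 8 deficient arrays in the fit it was 0.0723. Here too the red-cell markers were lower, and Alas2, Hbb-b2 and Hba-a1 were called, by 2.75, 2.25 and 2.03.

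Hist2h2be had a difference of 0.41 (adjusted p = 0.0694, limma) with age in the deficient brains, Hist1h2bg -0.30 (adjusted p = 0.252, limma) and Hist3h2a 0.25 (adjusted p = 0.269, limma). The median over the 41 genes was 0.003, against -0.014 over all genes. An unadjusted p under 0.05 was found for 2 Hist genes and for 21% of all genes. Hist2h2bb, an H2B gene, gave different answers at its 2 probes. The probe that was used, which holds the stem-loop, had a difference of 0.44 ± 0.314. The other starts at base 1340 and read -3.35, -2.83, -2.87 and -3.21 at 4 months and -2.11, -1.85, -2.34 and -1.74 at 18 months. Its groups did not overlap, and its difference was 1.05 ± 0.185 (adjusted p = 0.0114, limma, each probe tested on its own). This second probe lies at chr3:96082754-96082813, and the stem-loop probe at chr3:96074056-96074115. The second probe also shares at least 20 bases with a probe for another transcript of the region. Whether the 2 probes read the same transcript was not tested.

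**Figure D3:**
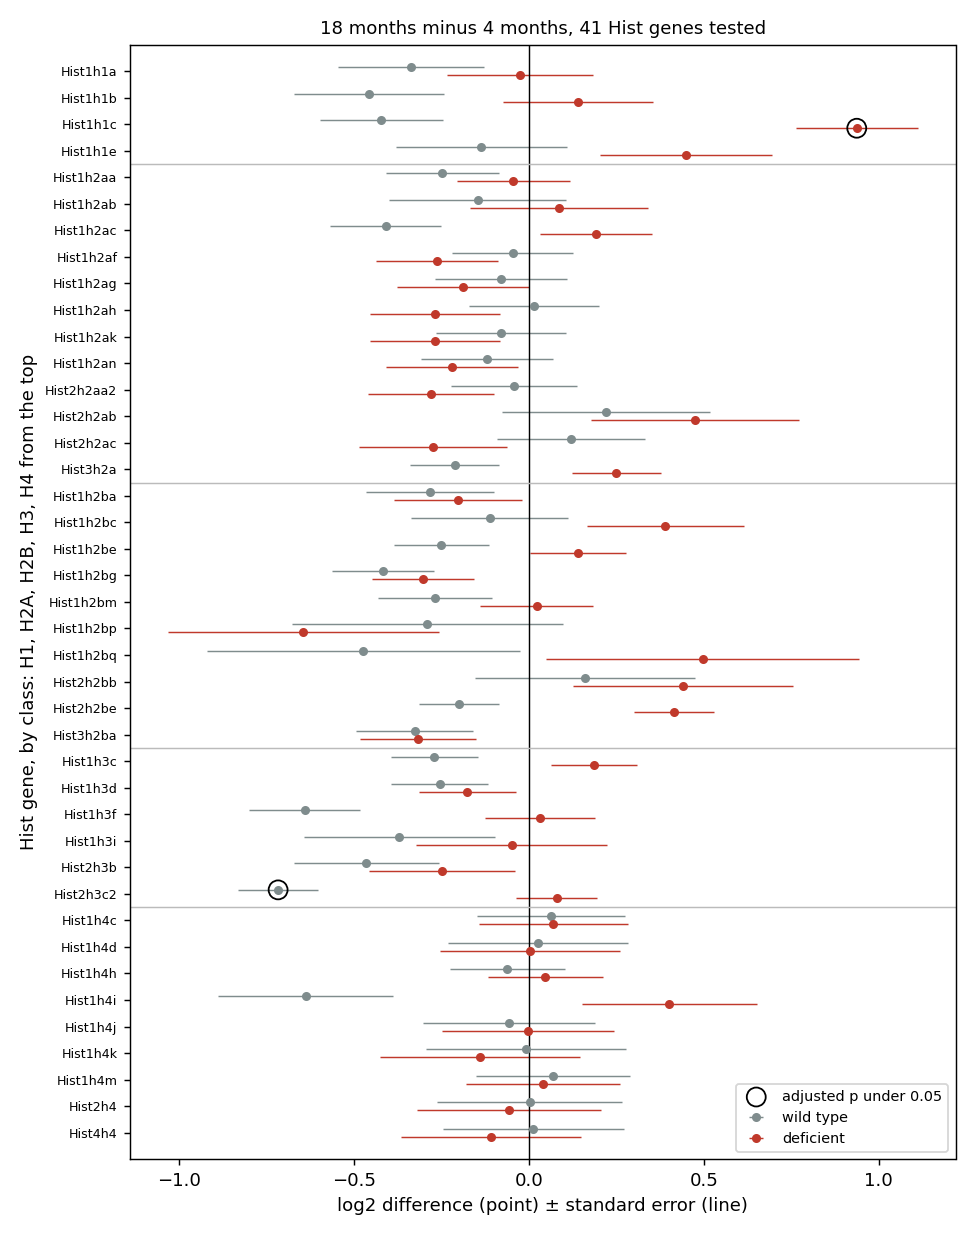
Fitted log2 differences, 18 months minus 4 months, of the 41 Hist genes tested, in the wild type (grey) and the deficient brains (red), with lines of 1 standard error. Circles mark an adjusted p under 0.05: Hist2h3c2 in the wild type and Hist1h1c in the deficient brains.

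Averaged over the genotypes, age changed 0 of the 41 Hist genes by limma, where 1.61% of all genes were called, 0.69% higher and 0.921% lower. At an unadjusted p under 0.05 there were 6, where 14.8% of all genes passed. With each probe tested on its own, Hist2h2bb was called, at its second probe, which shares bases with a probe for another transcript. The smallest p among the others belonged to Hist2h3c2 (-0.32, adjusted p = 0.066, limma), Hist1h2bg (-0.36, adjusted p = 0.105, limma), Hist1h3f (-0.31, adjusted p = 0.208, limma) and Hist3h2ba (-0.32, adjusted p = 0.21, limma). All 6 H3 genes were below 0, and the median over the 41 genes was -0.109 against -0.011 over all genes. With 1 array left out it ran from -0.153 to -0.062, the smallest sizes being without array 4 of the wild type at 4 months, array 1 of the wild type at 18 months (-0.063) or array 1 of the deficient brains at 4 months (-0.065).

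Averaged over the ages, 3 of the 41 Hist genes were called between the genotypes, and so between the slides. Over all genes 3.19% were called, 1.65% higher and 1.53% lower. Without adjustment, 10 had a p under 0.05, where 15.4% of all genes did. Hist1h1c and Hist1h1e were higher in the deficient brains, by 0.59 ± 0.124 (adjusted p = 0.0154, limma) and 0.75 ± 0.174 (adjusted p = 0.0273, limma). Hist1h3c was lower, at -0.34 ± 0.087 (adjusted p = 0.0472, limma). The Hist1h1c call held with every array left out in turn, while that of Hist1h1e was lost with 8 arrays and that of Hist1h3c with 12. Hist2h2be missed the threshold, at 0.28 (adjusted p = 0.0783, limma). These averages use the same arrays as the comparisons above.

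The classes were also read array by array. The deviation of each gene from its own mean over the 16 arrays was taken, and the median over a class was read on each array. For the 4 H1 genes it was -0.53, -0.49, 0.00 and -0.84 in the wild type at 18 months and 0.45, 0.34, 0.18 and 0.66 in the deficient brains of that age. For the 9 H4 genes it was -0.31, 0.05, 0.49 and -0.68 in the first of these groups and 0.01, -0.01, 0.12 and 0.17 in the second. Wild-type arrays of that age thus differed among themselves by more than the groups did for H4, while the H1 medians did not overlap. The 4 H1 genes include Hist1h1c and Hist1h1e, which were called in this comparison. Taken singly, Hist1h1a and Hist1h1b each overlapped between these groups. Over all 41 genes the medians were -0.24, -0.02, 0.04 and -0.40 against 0.01, 0.04, 0.01 and 0.00, and these overlapped. The SD of this median between arrays of a group was 0.16.

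**Figure D4:**
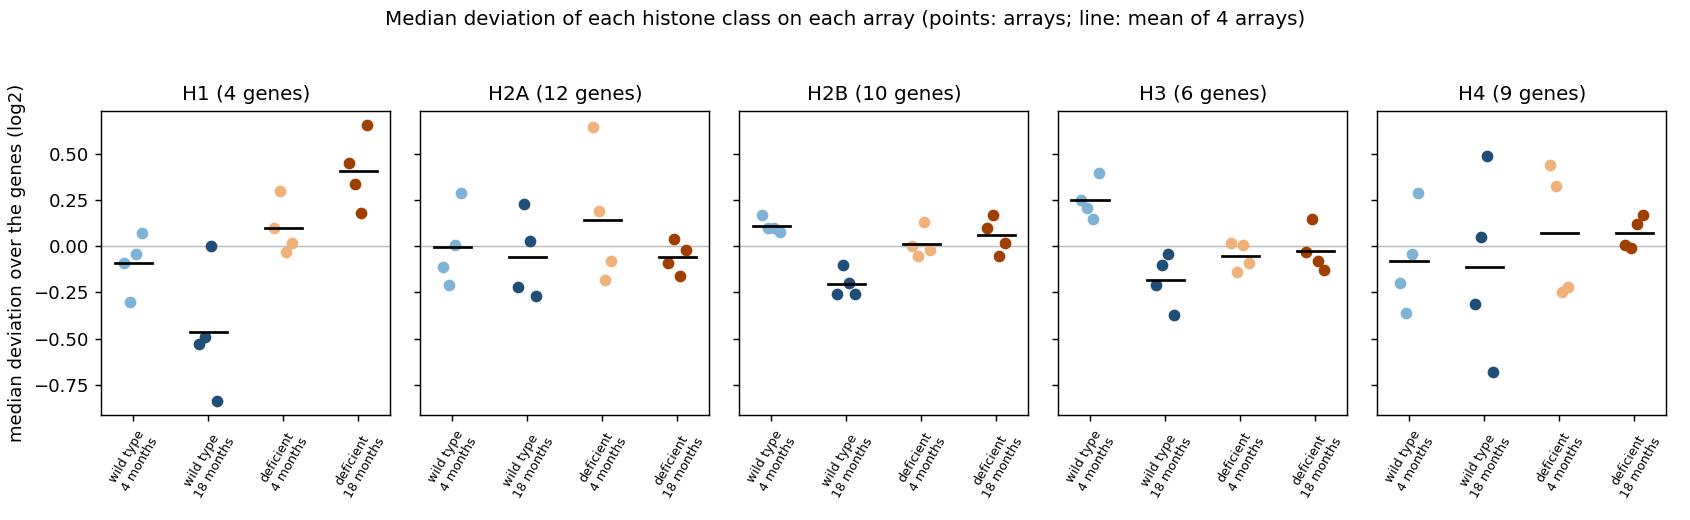
Median deviation from each gene's mean (log2), by histone class and array, with 1 panel per class and a line at the mean of the 4 arrays of a group. H1 runs from -0.84 in the wild type at 18 months to 0.66 in the deficient brains at 18 months. The highest H2A value, 0.65, is array 1 of the deficient brains at 4 months.

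The H2A genes are not all separate measurements. Of the 12 H2A genes tested, 7 were read by probes that share runs of at least 20 bases with one another, and 5 of the 7 also share such a run with a probe for H2afj, a gene of a replication-independent H2A. The sequences of 6 of them are shown. They end on the stop codon, and capitals mark the longest run that each shares with another of the 6.
Hist1h2af: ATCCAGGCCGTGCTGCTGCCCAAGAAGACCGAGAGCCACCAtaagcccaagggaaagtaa
Hist1h2ah: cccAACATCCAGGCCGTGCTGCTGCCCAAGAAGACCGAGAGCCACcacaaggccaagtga
Hist1h2ak: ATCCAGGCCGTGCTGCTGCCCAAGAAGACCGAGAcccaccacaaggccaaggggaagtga
Hist1h2an: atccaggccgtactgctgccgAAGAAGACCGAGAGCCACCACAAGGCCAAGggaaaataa
Hist2h2aa2: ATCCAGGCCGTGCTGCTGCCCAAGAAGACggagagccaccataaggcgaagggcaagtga
Hist2h2ac: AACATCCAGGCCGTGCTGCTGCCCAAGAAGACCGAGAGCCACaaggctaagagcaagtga
The shared runs are 29 to 42 bases long.

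These 7 genes read closely alike from array to array. On 15 of the 16 arrays the deviations of the 7 genes lay within 0.25 of each other. The exception was array 1 of the wild type at 4 months, where they ran from -0.64 to 0.05. On array 1 of the deficient brains at 4 months all 7 were high by the probes used, between 0.63 and 0.86. The second probe of Hist1h2ak, which shares no such run with another Hist gene, read 1.83 there, its highest array. The second probe of Hist2h2aa2, which holds the stem-loop, read 3.02 there, its lowest array. Array 1 of the deficient brains at 4 months also had the highest red-cell markers, with a summed log2 level of 8.06. Its 75th-percentile signal, by which the levels are scaled, was the lowest of the 16 arrays. This signal was 625.7, where the others ran from 774.3 to 1348. It also had the most outlier spots, 182. The part of red cells or of array signal in the H2A values was not tested. None of the 7 was called in any of the 7 contrasts by limma, where 0.187% to 3.19% of all genes were. In no contrast did any of them have an unadjusted p under 0.05, where 6.35% to 21% of all genes did. The median difference of the 7 genes at 4 months was 0.211, and at 18 months it was -0.008.

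**Figure D5:**
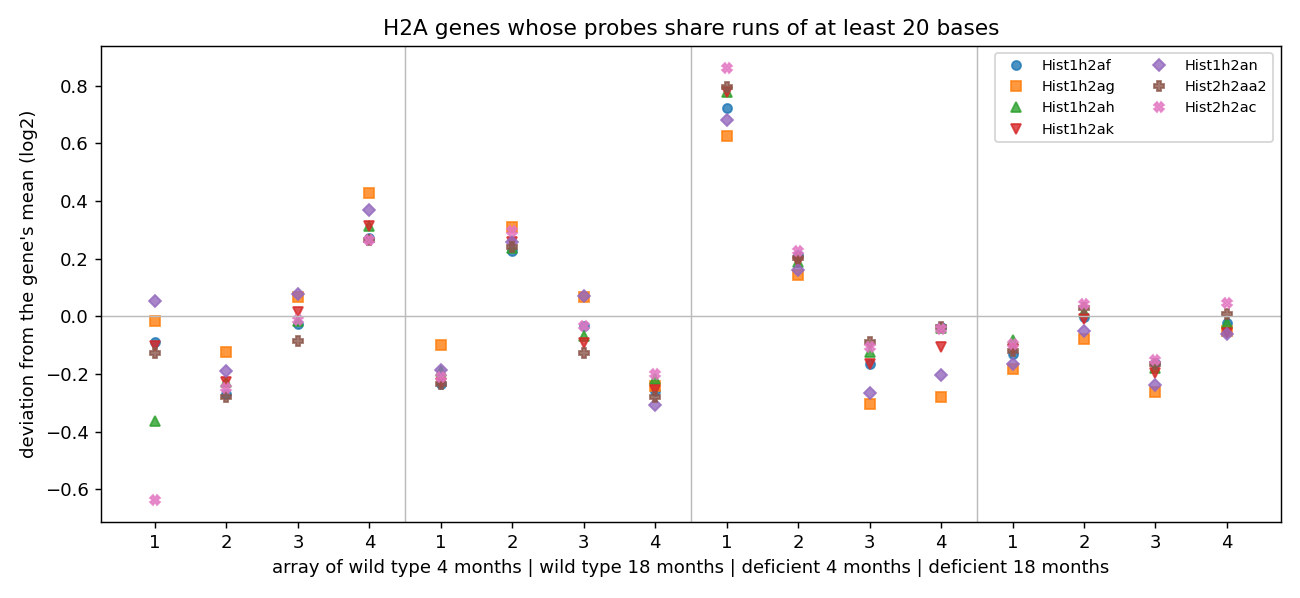
Deviation from each gene's mean (log2) of the 7 H2A genes whose probes share runs of bases, on each of the 16 arrays, 1 symbol per gene. The symbols lie on top of each other on most arrays, and on array 1 of the deficient brains at 4 months they lie between 0.63 and 0.86.

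Probes far along a transcript were set beside the others, a split chosen after the values were seen. In 13 of the 41 genes the probe starts at base 500 or later, among them all 3 genes called at 18 months. With age in the wild type all 13 had a fitted difference below 0, with a median of -0.327, against 19 of the other 28 with a median of -0.071. At 18 months the genotype medians were 0.337 and 0.117. At 4 months they were -0.086 and 0.129, with 3 of 13 and 21 of 28 genes above 0. The difference between the 2 sets was not tested.

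Promoters were searched for motifs because the 4 H1 genes had differences of the same sign at 18 months. RefSeq promoters (GRCm38.p6) were found for 42 of the 49 genes, and the 250 bases before the start were read on both strands. The 7-base motif AAACACA, known from H1 promoters, was in 5 of 6 H1 promoters, in 9 of the 42, and in 6.22% of all 27025 promoters. CCAAT was in 35 of the 42 and in 34.5% of all. TATAAA was in 22 of the 42 and in 13% of all. The octamer ATTTGCAT, known from H2B promoters, was in 5 of 9 H2B and 7 of 13 H2A promoters, and in 1.61% of all. Some H2A and H2B promoters overlap, as those of Hist1h2ae and Hist1h2bg do, so 1 stretch of DNA can enter both counts. The last 120 bases before the start are shown for the 2 linker genes that changed and for Hist1h1a, which was not called and lacks the H1 motif in the bases searched. Capitals mark the H1 motif, the CCAAT box and the TATA motif spelled out above, on either strand.
Hist1h1c: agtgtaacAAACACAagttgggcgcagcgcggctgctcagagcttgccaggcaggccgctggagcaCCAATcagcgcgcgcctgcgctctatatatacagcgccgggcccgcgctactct
Hist1h1e: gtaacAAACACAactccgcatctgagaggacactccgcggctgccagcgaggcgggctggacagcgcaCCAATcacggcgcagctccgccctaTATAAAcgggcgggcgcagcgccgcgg
Hist1h1a: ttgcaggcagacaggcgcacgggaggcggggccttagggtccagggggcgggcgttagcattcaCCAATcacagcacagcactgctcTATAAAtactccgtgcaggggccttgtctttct
They lie at chr13:23738687-23738806 on the plus strand (Hist1h1c), chr13:23622559-23622678 on the minus strand (Hist1h1e) and chr13:23763548-23763667 on the plus strand (Hist1h1a). Hist1h1b also holds AAACACA, and it was tested and not called. Hist1h1d and Hist1h1t hold it too, and neither had a probe above background in all arrays of any group. A match of letters is a description and not a binding site.

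The other genes of the Hist1 region were read too. Of the genes with other names whose probes lie between the first and last tested Hist1 probe on chromosome 13, 24 were tested. Of these, 0 were called in any of the 7 contrasts by limma, where 0.187% to 3.19% of all genes were. At an unadjusted p under 0.05 there were 0 to 3 per contrast, where 6.35% to 21% of all genes passed. The median difference of the 24 at 18 months was 0.106, against 0.18 for all 41 Hist genes tested, which lie on several chromosomes. Some of the 24 have only a transcript name. Probes under such names share runs of at least 20 bases with probes for Hist1h2ag, Hist1h2ah, Hist1h2an and Hist1h4k. The 24 are therefore not all apart from the histone genes. Hfe, a regulator of iron uptake, chosen after its values were seen, was at -0.09 (adjusted p = 0.948, limma).

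Histone genes outside the clusters were followed as a list of 17, of which 13 were tested. In the genotype averaged over the ages 1 was called, where 3.19% of all genes were. This was Cenpa, the centromeric H3, higher by 0.43 ± 0.108 (adjusted p = 0.0418, limma). None was called in the other 6 contrasts by limma, where 0.187% to 2.39% of all genes were. In those 6 there were 0 to 2 per contrast at an unadjusted p under 0.05, where 6.35% to 21% of all genes passed. The linker histone H1f0 had 0.70 ± 0.193 at 18 months (adjusted p = 0.105, limma) and H1fx 0.05. At 18 months the median of the 13 was 0.048.

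Of 21 tested genes that read histone genes or trim their mRNA ends, 2 were called between the genotypes averaged over both ages. Of these, 1 was higher and 1 lower, where 3.19% of all genes were called. The lower one in the deficient brains was Slbp, at -0.50 ± 0.115 (adjusted p = 0.0272, limma). Slbp binds the stem-loop shown above. It read between -0.78 and -0.14 in the wild type at 4 months and between -1.31 and -0.80 in the deficient brains of that age, and between -0.82 and -0.24 against -1.13 and -0.72 at 18 months. Groups of the same age overlapped only at 18 months. At 18 months 1 of the 21 was called, where 1.47% of all genes were. This was Zfp473, a zinc-finger protein of histone mRNA end formation, higher by 0.48 ± 0.103 (adjusted p = 0.0278, limma). Of the 27 histone chaperones tested, 2 were called, both with age in the deficient brains, where 2.39% of all genes were: Chaf1a, the large subunit of the assembly factor CAF-1, at -0.54 (adjusted p = 0.0267, limma), and Ubn2 at 0.46 (adjusted p = 0.0406, limma).

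Genes of DNA replication and cell division were a list of 29, of which 25 were tested. With age in the deficient brains, where 1.12% of all genes were called lower, 5 fell: Tk1 (thymidine kinase), Ccnb1 and Ccna2 (cyclins), Mki67 and Mcm3, by 1.12, 1.29, 0.51, 1.08 and 0.51 on the log2 scale. In the wild type, where 0.252% were called lower, 2 fell, Tk1 by 0.72 and Ccna2 by 0.55. None was called in a genotype comparison by limma, with 4 genes at 4 months and 1 at 18 months at an unadjusted p under 0.05, beside 17.4% and 9.91% of all genes. Over the same ages in the deficient brains, the 41 Hist genes had 1 call, higher, and a median of 0.003, beside -0.173 for this list. In the wild type the order was the other way, with -0.2 for the Hist genes and -0.046 for this list. Averaged over the genotypes the medians were close, at -0.109 and -0.123. In that average 4 genes of this list were called lower by limma, where 0.921% of all genes were.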

How the data were processed

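Whole-brain RNA of male mice was measured on 16 Agilent arrays in 1 colour; groups were taken from the titles, since the strain and age tags are interchanged in the labels. Per the file headers, Agilent Feature Extraction 10.7.3.1 made the deposited intensity values, with background subtracted and no scaling between arrays. The deposited value table holds log2 values of unstated scaling, with column medians of 6.606 to 6.622, and served only as an alternative; the submitters' processing notes name limma without steps. Other processing is not given in the sources used here.

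Levels were log2 of the processed intensity minus the array's 75th percentile. Outlier spots were left out, and spots of a probe averaged. A probe was kept if well above background on all 4 arrays of a group. Where a gene had several kept probes, the one of highest mean level stood for it. A 4-group means model with 7 contrasts was fitted in limma 3.58.1 (R 4.3.3) to 23030 genes, with Benjamini-Hochberg adjustment over all of them. The number of arrays limits the precision. The script was tested on simulated data. The members and lists were chosen with earlier results of these data known, and support nothing independently. Named were Hist genes called in any contrast, the 4 with the smallest p in each, and those above background on all arrays; of the other lists, called genes or those with the smallest p, and further ones chosen after their values were seen. Alternatives were normexp (offset 50), quantile normalization, the value table, other probe summaries, filters, samples in the fit, a replicate block and each array left out. Names were matched to RefSeq (GRCm38.p6) for all 49 genes. Proteins were not used here.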

Additional observations from a re-analysis of the deposited data

Results flagged for a closer look

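Hist1h1c in the deficient brains at 4 months had 1 array apart from the other 3: array 1 read 1.14, and the next was 1.61, a gap of 0.847 of the group's range. This is past Dixon's limit for 4 values, as was 1 of the 44 groups of 4 examined (11 genes). Chance alone puts about 1 group in 20 past the limit. That array also had the highest red-cell markers and the lowest 75th-percentile signal of the 16.

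The genotype difference of Hist1h1c at 18 months exceeded that at 4 months by 1.36, by the test of the difference itself (adjusted p = 0.0401, limma). The slide row cannot be told apart from this difference. Red-cell and pituitary markers had medians of -1.868 and 3.479 in the same test, and their part was not tested.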

How the results depend on the processing

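Of the genes called or among the 4 smallest p in a contrast, none changed direction in that contrast under any alternative run. Other genes were not followed singly, and some crossed 0, as the H2A and H2B counts at 18 months above show. The Hist medians that lay near 0 did change sign: with 1 array left out, that of genotype at 4 months ran from -0.029 to 0.111 and that of age in the deficient brains from -0.091 to 0.11, and the latter was -0.027 with normexp. Of the counts recomputed, 122 stayed within 1.5 times the reported one and 50 did not. Single genes kept their side of the threshold in 596 recomputations, lost a call in 80 and gained one in 12. The number of Hist genes called, by comparison, moved as follows. For genotype at 4 months, reported as 1, it was 0 with normexp, without a filter on dim probes, with only the groups compared and with the replicate block, and 2 with quantile normalization and the value table. For genotype at 18 months, reported as 3, it was 1 with only the groups compared. A count within 1.5 times the reported one, such as 2 in place of 3, is not listed here. Over the 25 alternatives, those with an array left out included, Hist1h1e lost its call at 18 months in 18 and Hist2h2be in 5. For age in the wild type, reported as 1, it was 2 with quantile normalization. For age in the deficient brains, reported as 1, it was 2 with the mean of a gene's probes or each probe on its own, and 0 with only the groups compared. For the difference between differences, reported as 1, it was 2 with the value table and 0 without the filter or with the replicate block. For mean age, reported as 0, it was 1 with each probe on its own. For mean genotype, reported as 3, it was 1 without the filter or with the replicate block. Over its 24 alternatives Hist1h1e lost its call in 10 and Hist1h3c in 17. With each array left out in turn the counts ran from 0 to 1, 1 to 4, 1 to 1, 0 to 2, 0 to 1, 0 to 1 and 1 to 3 in that order. Array 1 of the deficient brains at 4 months, when left out, gave the 1 call for mean age, Hist1h2bg. The median of the Hist genes moved by more than the spread between arrays once, from 0.202 to 0.039 for the difference between differences with normexp. The cause of these shifts was not tested.

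Replicate numbers do not pair the arrays: over 24 pairs of the same number, deviations correlated between -0.44 and 0.27, with 8 above 0.1, and 4 of 16 arrays correlated best with their own number. With few arrays, and with 13 probes not above background everywhere, absent calls do not show absent differences.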
